A study of Arabidopsis thaliana with 18 samples.

Results

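Small RNAs of 22 nt were followed at 6 protein-coding genes of Arabidopsis thaliana, of 32420 genes in the deposited table. The 6 genes are AT2G03500 (EFM), AT2G44470 (BGLU29), AT4G34710 (ADC2), AT5G13180 (NAC083), AT3G13080 (ABCC3) and AT3G16560. They were chosen by their deposited means, as high in the mutant dcl4-2 on abscisic acid (ABA) and low, on the same medium, in wild type Col-0 and in the double mutant dcl4-2 dcl2-1. Those 3 ABA means set the choice, so every difference that involves them is given below as a description with no test, and dependence on DCL2 was not tested on ABA. The MS values were not part of the choice, and the genotypes are tested there.

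The study profiled small RNAs of whole seedlings, per the labels, in 6 groups of 3 biological replicates. Col-0, dcl4-2, which carries a mutant allele of DCL4, and dcl4-2 dcl2-1, which carries the same allele and one of DCL2, were raised on MS medium, or on MS with 1 µM ABA, to an age of 14 days. The dcl4-2 allele is shared by both mutants, and no dcl2-1 single mutant is among the groups. Another field of the labels speaks of aerial parts of soil-grown plants with no treatment, so the growth conditions are given with that conflict. Reads from a whole seedling cannot tell fewer cells making an RNA apart from less of it per cell.

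Dicer-like enzymes cut double-stranded RNA into small interfering RNAs (siRNAs). DCL4 processes most siRNAs made from transcripts of coding genes, and DCL2 makes the 22-nt kind, chiefly where DCL4 is missing or saturated. The 22-nt siRNAs are known to recruit the RNA-dependent RNA polymerase RDR6 to their targets and so to spread silencing along a transcript. ABA is the hormone of drought and seed dormancy, and it slows seedling growth.

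All 6 genes lie on nuclear chromosomes of TAIR10.1 (RefSeq), and the counts in the table carry no position or strand within a gene. EFM encodes a MYB-type repressor of flowering and occupies chr2:1059545-1062679 on the plus strand in 4 exons. NAC083, also called VNI2, encodes a transcription factor that represses xylem vessel formation and acts in ABA-linked leaf ageing. It lies at chr5:4196256-4197940 on the plus strand with 3 exons and overlaps AT5G00390, a non-coding RNA gene on the opposite strand, so reads of the 2 genes cannot be told apart here. ADC2, the stress-induced arginine decarboxylase that starts putrescine synthesis, is a 1-exon gene at chr4:16560030-16563044 on the minus strand. BGLU29, a beta-glucosidase, lies at chr2:18354186-18358679 on the plus strand with 13 exons. ABCC3, an ABC transporter of glutathione conjugates and chlorophyll breakdown products, lies at chr3:4195770-4201734 on the minus strand with 7 exons. AT3G16560, annotated as a protein phosphatase 2C, lies at chr3:5635593-5638798 on the minus strand with 4 exons.

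Stretches that these genes share with other genes are shown first, since a 22-nt read from such a stretch matches more than 1 place, and the sources used here do not say how such reads were assigned. The longest exact match of ADC2 is with ADC1, the other arginine decarboxylase gene, over 40 bases at chr4:16561367-16561406. In BGLU29 the longest run of 22-base windows that occur elsewhere covers 42 bases at chr2:18355434-18355475. These windows occur in its relatives BGLU28 and BGLU30, and neither gene was checked for all 42 bases. The longest exact match of ABCC3 is with AT1G71330, over 54 bases that cross an intron edge at chr3:4198516-4198569. Every base shown is shared, so none is in capitals, and each is written along the strand of the named gene.
ADC2: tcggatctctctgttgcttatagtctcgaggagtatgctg
BGLU29: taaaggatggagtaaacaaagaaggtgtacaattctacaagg
ABCC3: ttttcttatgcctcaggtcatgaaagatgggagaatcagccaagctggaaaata
Such stretches made up little of each gene. Of the 22-base windows of ADC2, 2.51% occurred elsewhere in the genome, against 2.81% in ABCC3, 2.33% in BGLU29, 1.38% in NAC083, 0.440% in AT3G16560 and 0.289% in EFM. The median over 27439 coding loci was 0.651%, and 4 of the 6 genes lay above it. The repeated windows of BGLU29 had 5899 matches elsewhere and those of NAC083 had 354. The matches numbered 171 for ABCC3, 82 for ADC2, 31 for EFM and 14 for AT3G16560. A share of windows does not give the share of reads that came from them, which was not tested.

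Depth was uneven. The totals behind the RPM values (reads scaled to a common library size) were 12.7, 10.02 and 0.517 M reads (M, mega) in the 3 libraries of dcl4-2 on ABA and between 0.0953 and 2.19 M in the other 15. Within a group the deepest library is named A, the next B and the shallowest C. The nitrate reductase genes NIA1 and NIA2 held 89.2% of the summed gene signal in dcl4-2 on ABA, and the 6 genes together gave 201 RPM, or 0.644% of the rest. Without library B, which is high for ADC2, they gave 109.6 RPM, or 0.316% of the rest. In the other 5 groups the 6 genes together gave between 1.39 and 8.41 RPM. DCL2 and DCL4 themselves gave at most 0.364 and 0.145 RPM of 22-nt reads in any group, so they could not check the genotype labels.

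The 2 transcription factor genes differed in how strictly their reads were restricted to dcl4-2 on ABA. EFM gave 369, 239 and 27 reads in libraries A, B and C of that group, which is 29.1, 23.8 and 52.2 RPM. EFM had 0 reads in all 15 libraries of the other groups, so its libraries did not overlap with any of them. Its mean of 35.1 ± 15.1 RPM (SD, n = 3) stands against limits that 0 reads allow, taken as 3 reads over a group: 0.540 RPM in Col-0 on ABA, 1.17 RPM in dcl4-2 dcl2-1 on ABA and 1.49 RPM in dcl4-2 on MS. Pooled over libraries, EFM was at least 50.6-fold higher in dcl4-2 on ABA than in Col-0 on ABA, at least 23.4-fold higher than in the double mutant on ABA, and at least 18.3-fold higher than in dcl4-2 on MS.

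NAC083 gave 158, 68 and 10 reads in libraries A, B and C of dcl4-2 on ABA, which is 12.5, 6.79 and 19.3 RPM. It was also present in dcl4-2 on MS, with 0, 5 and 1 reads, or 0, 7.52 and 1.95 RPM. These groups overlapped, since MS library B lay above ABA library B. Col-0 held 1 NAC083 read on each medium, and dcl4-2 dcl2-1 held 0 reads on either. The mean in dcl4-2 on ABA was 12.9 ± 6.29 RPM (SD, n = 3), and the pooled ratio to dcl4-2 on MS was 3.41, with an exact 95% binomial interval of 1.54 to 9.38. Intervals and limits of this kind cover counting error only, and leave out the spread between libraries. All of them use the dcl4-2 ABA values that chose the genes, so they describe the counts and test nothing. The pooled ratio to Col-0 on ABA was 56.4, with an interval of 10.03 to 2239 that reflects the single read there, and NAC083 was at least 8.69-fold higher than in the double mutant on ABA.

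Of the 2 enzyme genes, ADC2 had the highest mean of the 6 genes, but 1 library made it so. ADC2 gave 260, 3246 and 16 reads in libraries A, B and C of dcl4-2 on ABA, which is 20.5, 324 and 31.0 RPM. Library B held 15.8 times the RPM of library A, and the mean of 125 ± 172 RPM (SD, n = 3) fell to 25.7 RPM without library B. ADC2 was also the gene with reads in the most other libraries: the values were 1.02, 2.30 and 1.72 RPM in Col-0 on MS and 2.74, 2.73 and 3.26 RPM in Col-0 on ABA. They were 1.203, 6.01 and 5.84 RPM in dcl4-2 on MS, and 0.913, 2.02 and 10.5 RPM in dcl4-2 dcl2-1 on MS, where the last is 1 read. In dcl4-2 dcl2-1 on ABA they were 1.56, 1.81 and 0 RPM. All 3 libraries of dcl4-2 on ABA lay above all 15 others. The pooled ratio to Col-0 on ABA was 52.6, and without library B it was 7.26 (95% interval 4.39 to 12.9). The ratio to the double mutant on ABA was 97.2, and 13.4 without library B. The ratio to dcl4-2 on MS was 38.1, and 5.26 without library B.

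BGLU29 gave 266, 211 and 6 reads in libraries A, B and C of dcl4-2 on ABA, which is 21.0, 21.1 and 11.6 RPM, a mean of 17.9 ± 5.43 RPM (SD, n = 3). In wild type on ABA, 1, 4 and 2 reads of BGLU29 gave 0.457, 2.19 and 1.31 RPM. No read of BGLU29 was found in any of the 9 MS libraries or in the double mutant on ABA. Its 3 libraries of dcl4-2 on ABA lay above those of Col-0 on ABA, with a pooled ratio of 16.5 (95% interval 7.95 to 41.3). BGLU29 was at least 17.8-fold higher than in the double mutant on ABA and at least 13.9-fold higher than in dcl4-2 on MS.

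The transporter gene ABCC3 gave the most even values. Its 93, 60 and 4 reads in libraries A, B and C of dcl4-2 on ABA came to 7.34, 5.99 and 7.74 RPM, a mean of 7.02 ± 0.918 RPM (SD, n = 3). The other groups held 1 read each, apart from Col-0 on MS with 2, 3 and 0 reads, or 2.05, 3.45 and 0 RPM. No library of another group reached the lowest of dcl4-2 on ABA. The pooled ratio was 37.6 to Col-0 on ABA (6.64 to 1492), 17.3 to the double mutant on ABA (3.07 to 689) and 13.6 to dcl4-2 on MS (2.40 to 540.4), all with 1 read in the group compared.

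The phosphatase gene AT3G16560 had the lowest mean of the 6 in RPM, which has no length term. It gave 63, 36 and 1 reads in libraries A, B and C of dcl4-2 on ABA, which is 4.97, 3.59 and 1.93 RPM, a mean of 3.50 ± 1.52 RPM (SD, n = 3). Single reads occurred in Col-0 on MS and in dcl4-2 on MS, at 1.02 and 1.503 RPM, and the remaining 3 groups held 0 reads. The lowest library of dcl4-2 on ABA rests on 1 read and lay just above the highest on MS. AT3G16560 was at least 7.97-fold higher than in Col-0 on ABA and at least 3.68-fold higher than in the double mutant on ABA.

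**Figure D1:**
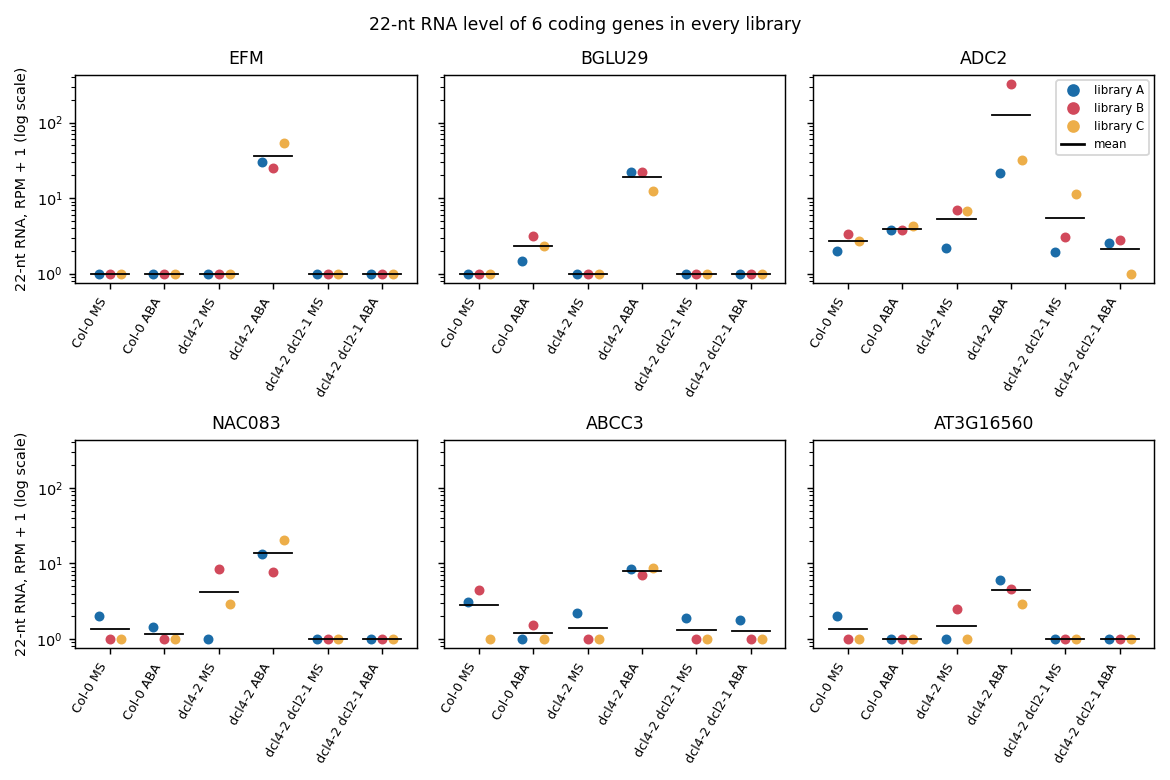
22-nt RNA level, as RPM + 1 on a log scale, of each of the 6 genes in the 3 libraries of every group. Points are libraries, coloured by their order of depth within the group, and lines are group means. EFM is at 0 outside dcl4-2 on ABA, ADC2 reaches 324 RPM in 1 library, and NAC083 in dcl4-2 on MS overlaps with dcl4-2 on ABA.

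All 3 libraries of dcl4-2 on ABA lay above those of Col-0 on ABA for 6 of the 6 genes, as for 9.1% of the 5695 genes tested there. They lay above those of the double mutant on ABA for 6 of 6 (25.7% of the genes tested) and above those of dcl4-2 on MS for 5 of 6 (25.5%). The choice of the genes fixed the counts against Col-0 and the double mutant and used the dcl4-2 ABA values of the third, so nothing is read from these counts. All 6 genes passed the filter of at least 1 RPM in at least 3 libraries, each with its 3 dcl4-2 ABA libraries above that level. For EFM these were the only libraries at 1 RPM or more, against 13 further libraries for ADC2 and 2 or 3 for the others, so EFM, BGLU29 and AT3G16560 passed the filter only with the group that chose them.

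Between genes, levels were compared per kb of transcript. In dcl4-2 on ABA, ADC2 stood at 41.5 ± 57.1 RPM per kb, EFM at 16.7 ± 7.19, BGLU29 at 8.71 ± 2.65, NAC083 at 8.53 ± 4.17, AT3G16560 at 1.41 ± 0.612 and ABCC3 at 1.31 ± 0.171 RPM per kb (SD, n = 3). The libraries of neighbours in this order overlapped, except between EFM and BGLU29 and between NAC083 and AT3G16560. Among 26712 coding genes the ranks ran from 9 for ADC2 and 24 for EFM through 53 and 54 for BGLU29 and NAC083 to 613 for AT3G16560 and 673 for ABCC3. The place of ADC2 rested on library B: without it ADC2 stood at 8.54 RPM per kb, rank 67, below EFM at 19.4 and NAC083 at 10.5 RPM per kb.

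The 6 genes did not stand alone inside the values that chose them. Taking their lowest mean in dcl4-2 on ABA (3.50 RPM) and their highest in Col-0 on ABA (2.91 RPM) and in the double mutant on ABA (1.13 RPM) as bounds, 184 further genes lay within. Of these, 61 were coding genes and 113 pseudogenes. The 5 highest in dcl4-2 on ABA were AT4G29920 at 82.5 RPM, DMT2 at 14.6, the pseudogenes AT3G32970 at 13.8 and AT3G42718 at 11.5, and DEG14 at 9.82 RPM. The coding genes just inside the lower bound were AT4G07932 at 3.504 RPM and BRI1, the brassinosteroid receptor gene, at 3.506 RPM. Just outside it lay AGO1, an Argonaute gene, at 3.495 RPM and AT2G07727 at 3.46 RPM.

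On MS, where the choice of genes used no value, only some of the 6 genes could be tested. EFM and BGLU29 had no MS read and could not pass, and AT3G16560 reached the filter only with its dcl4-2 ABA libraries. Of the other 3 genes, ADC2, NAC083 and ABCC3, 0 passed in any of the 3 comparisons of genotypes (limma, adjusted p under 0.05 over all genes tested). In dcl4-2 against Col-0, 0.456% of 5697 genes passed, in dcl4-2 dcl2-1 against dcl4-2 0.649% did, and in dcl4-2 dcl2-1 against Col-0 1.25% did. NAC083 came nearest. Its 0, 7.52 and 1.95 RPM in dcl4-2 stood against 0 in all 3 double-mutant libraries, a difference in log2(RPM + 1) of -1.55 ± 0.65 (SE; 95% interval -2.84 to -0.26). The unadjusted p of limma was 0.0188 and the adjusted p 0.430, which ranged from 0.118 to 0.915 over the alternatives. The SE of 0.65 takes its spread from all 18 libraries, those of dcl4-2 on ABA included. With only the groups compared the SE was 0.90, and a 95% interval of that width covers 0. Against Col-0, dcl4-2 had 1.21 ± 0.65 more log2(RPM + 1) of NAC083 (95% interval -0.08 to 2.50; limma adjusted p = 0.573). Without dcl4-2 MS library B, which holds 5 of the 6 reads, the difference between the mutants was -0.78 and the difference from Col-0 was 0.44.

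ADC2 differed by 0.85 ± 0.82 between dcl4-2 and Col-0 on MS and by -0.22 ± 0.82 between the double mutant and dcl4-2, again in log2(RPM + 1) (SE; limma adjusted p = 0.836 for the former). The corresponding intervals, -0.78 to 2.48 and -1.85 to 1.41, leave room for changes in either direction. For ABCC3 the difference of dcl4-2 from Col-0 was -0.87 ± 0.63 (95% interval -2.13 to 0.38; limma adjusted p = 0.731). AT3G16560 differed by 0.10 and -0.44 in the same comparisons, on 2 reads in all MS libraries. EFM and BGLU29 gave no fold there. For a gene with 0 reads on MS, the limit of 3 reads over the group was 1.24 RPM for Col-0 and 1.49 for dcl4-2.

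**Figure D2:**
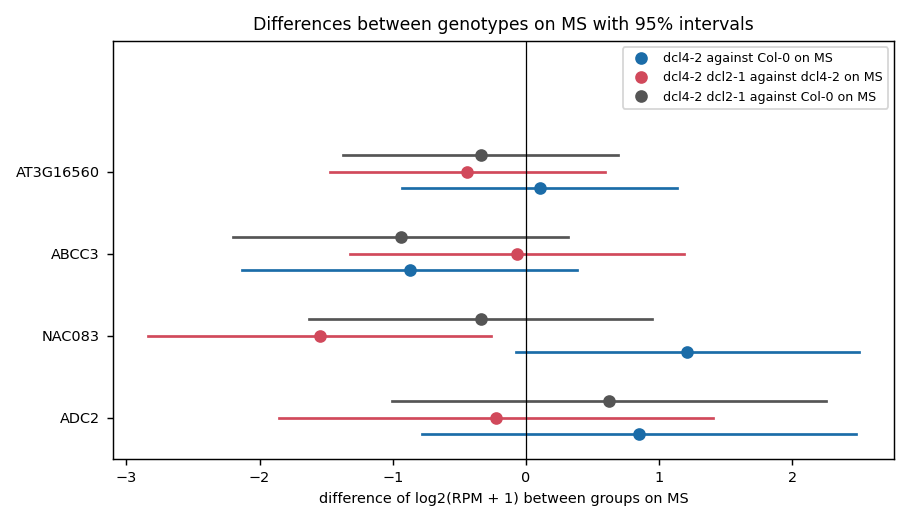
Differences between genotypes on MS in log2(RPM + 1) for the 4 genes with any read on MS, with 95% intervals from limma (n = 3 libraries a group). Only the interval of NAC083 between the double mutant and dcl4-2 lies clear of 0, from -2.84 to -0.26, and it did not pass after adjustment. The intervals take their spread from all 18 libraries. With only the groups compared, the SE of this NAC083 difference was 0.90, and a 95% interval of that width covers 0.

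Relatives and pathway genes of the 6 were counted next. Of 66 such genes on 6 lists, 22 had no read in dcl4-2 on ABA and 8 had a mean of 1 RPM or more. The lowest of the 6 genes was exceeded by 2 of them (HHO5 and ADC1), both per kb and in RPM. In RPM, 250 coding genes stood at or above the lowest of the 6, which are included, and 26712 coding genes were ranked per kb. The shares of all genes with no read or at 1 RPM were not computed, so nothing is read from those counts. The 6 were chosen as high in this group, which favours them over genes not so chosen. The 66 genes include 13 that passed the filter. In the 3 comparisons on MS and in dcl4-2 against Col-0 on ABA, 0 of these 13 passed by limma, against 0.228% of 5695 genes tested in the last. In the double mutant against dcl4-2 on ABA, where 6.29% of genes passed, and from MS to ABA in dcl4-2, where 5.58% did, HHO5 and ADC1 passed. HHO5 reached the filter only with its 3 dcl4-2 ABA libraries, having 2 others at 1 RPM or more, so its tests against that group are no support. ADC1 had 3 other libraries at that level.

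HHO5, a GARP transcription factor gene of the same family as EFM, gave 3.79, 2.89 and 7.74 RPM in libraries A, B and C of dcl4-2 on ABA, a mean of 4.81 ± 2.58 RPM (SD, n = 3), and 0 in all libraries of the double mutant on ABA. The fitted difference was -2.45 ± 0.57 in log2(RPM + 1) (SE; limma adjusted p = 0.00439, range 0.00511 to 0.315 over the alternatives). From MS to ABA in dcl4-2 it was 2.07 ± 0.57 (limma adjusted p = 0.0251, range 0.0189 to 0.391). The median difference over all genes tested was -0.51 and 0.51 in these comparisons. Scaling all libraries to equal sums over MIRNA loci ended both calls, with adjusted p of 0.315 and 0.391, as did equal sums over genes without NIA1 and NIA2 (0.185 and 0.354) and a fit on only the groups compared (0.0935 and 0.131). With a pseudocount of 0.1 or without the filter, the call from MS to ABA was lost (0.0670 and 0.0516). The call from MS to ABA was also lost without dcl4-2 MS library B or C (0.0866 and 0.0759) and without dcl4-2 ABA library A or C (limma adjusted p = 0.0549 and 0.119). The other 5 members of that family list gave at most 0.165 RPM in dcl4-2 on ABA.

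ADC1 gave 0.868, 19.6 and 1.93 RPM in libraries A, B and C of dcl4-2 on ABA, high in the same library as ADC2, and 0 in the double mutant on ABA. The fitted difference was -2.27 ± 0.60 in log2(RPM + 1) (SE; limma adjusted p = 0.0137, range 0.00612 to 0.442 over the alternatives). From MS to ABA in dcl4-2 it was 1.89 ± 0.60 (limma adjusted p = 0.0447, range 0.0242 to 0.439). Without library B these became -1.23 and 0.85, and neither passed, with adjusted p of 0.154 and 0.344. Both calls were also lost under each setting that kept all libraries. For the double mutant against dcl4-2, the adjusted p of limma was 0.0526 with a pseudocount of 0.1, 0.109 without the filter, 0.188 with only the groups compared, 0.442 with MIRNA scaling and 0.246 with equal sums over genes without NIA1 and NIA2. From MS to ABA it was 0.0901, 0.140, 0.233, 0.439 and 0.376 in the same order. The call from MS to ABA was also lost without dcl4-2 MS library B or C (0.137 and 0.120) and when library C of dcl4-2 on ABA was left out (adjusted p of limma, 0.1001). Against Col-0 on ABA, ADC1 did not pass (limma adjusted p = 0.230) but did without library A of dcl4-2 on ABA (0.0455). ADC1 shares 61 windows of 22 bases with ADC2, and the part of such reads in its values was not tested. Of the other 10 genes of polyamine synthesis, 5 had no read in any library and none reached a mean of 1 RPM in dcl4-2 on ABA.

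BGLU28, which lies next to BGLU29, gave 2.60, 2.00 and 0 RPM in dcl4-2 on ABA and 0 in the other 5 groups. Per kb this was 0.715 RPM against 8.71 for BGLU29. BGLU26, also called PEN2, a myrosinase of plant immunity, had the highest mean over groups of the 9 beta-glucosidase genes listed. It stood at 0.702 ± 0.699 RPM in dcl4-2 on ABA (SD, n = 3) and at 5.33 RPM in the double mutant on ABA. This difference, 1.70 ± 0.71 in log2(RPM + 1), ran opposite to BGLU29 and did not pass (SE; limma adjusted p = 0.119). Its other means were 1.77 RPM in Col-0 on ABA, and on MS 3.79 in Col-0, 3.26 in dcl4-2 and 0 in the double mutant. Of 14 ABCC genes, 4 reached a mean of 1 RPM in dcl4-2 on ABA and 0 of 5 tested passed in any comparison. ABCC1 and ABCC14, with the highest means over groups, stood at 1.13 ± 0.719 and 0.843 ± 0.951 RPM there (SD, n = 3). ABCC4, ABCC10 and ABCC8 were higher there, at 3.03 ± 4.08, 1.95 ± 1.76 and 1.63 ± 1.95 RPM (SD, n = 3). In the double mutant on ABA, ABCC4 and ABCC10 gave 0 and ABCC8 0.604 RPM, whereas ABCC1 was higher, at 3.01 RPM. ABCC10 gave 0 in all other groups, and ABCC4 gave 0.334 RPM in Col-0 on ABA. ABCC4 and ABCC10 did not pass the filter and were not tested. AT1G71330 shares 152 windows of 22 bases with ABCC3, and it gave 2 reads in dcl4-2 on ABA against 157 for ABCC3.

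The VND genes, whose product VND7 is bound by NAC083, and stress genes reported as its targets gave 1 gene of 11 at 1 RPM or more, RD29A at 2.21 ± 0.880 RPM in dcl4-2 on ABA (SD, n = 3), next to RD29B at 0.623 ± 0.710 RPM. RD29A did not pass in any comparison, with differences in log2(RPM + 1) of 1.41 ± 0.58 against Col-0 on ABA and -1.15 ± 0.58 for the double mutant against dcl4-2 on ABA (SE; limma adjusted p = 0.641 and 0.216). Of 15 other protein phosphatase 2C genes, which include the ABA co-receptors, 0 reached a mean of 1 RPM in dcl4-2 on ABA. Elsewhere ABI1 at 1.53 and HAI1 at 1.07 RPM in Col-0 on MS and PP2CA at 1.05 RPM in dcl4-2 on MS did. ABI1 and PLL5, the most abundant over groups, stood at 0.622 ± 0.543 and 0.231 ± 0.206 RPM in dcl4-2 on ABA (SD, n = 3). Chromosomal neighbours were counted in the same group. Of the 3 genes on each side of the 6, 36 in all, 12 had no read in dcl4-2 on ABA. A mean of 1 RPM there was reached by 3 of the 36. The shares of all genes at these levels were not computed, so these counts do not set the neighbours apart from other genes. The highest were BGLU28 at 1.53, AT5G13200 at 1.33 and AT4G34690 at 1.25 RPM.

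**Figure D3:**
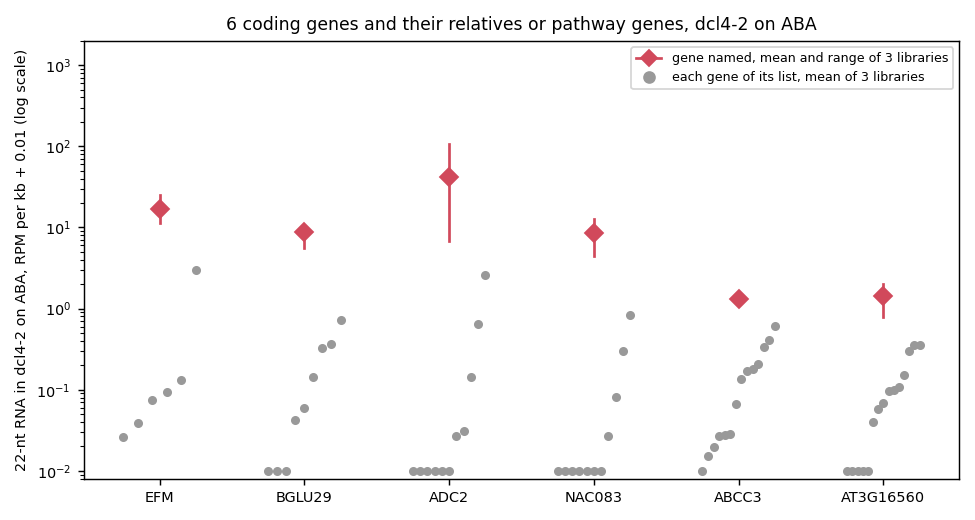
Mean 22-nt RNA level in dcl4-2 on ABA, in RPM per kb of transcript + 0.01 on a log scale, of each of the 6 genes (diamonds, with the range of 3 libraries) and of the 66 genes on their lists (grey points). Each diamond lies above all points of its list, and the highest of those points are HHO5 at 2.99 and ADC1 at 2.56 RPM per kb. The 6 genes were chosen as high in this group and the listed genes were not. The choice favours this order, so nothing is read from it.

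Library B of dcl4-2 on ABA was compared with library A over the 651 genes with at least 100 reads in both together. The ratio of B to A had a median of 0.796, with the 5th and 95th percentiles at 0.201 and 1.36. Only 4 genes had a ratio of 5 or more: AT1G54200 at 70.8, ECP63 at 49.3, ADC1 at 22.5 and ADC2 at 15.8. EFM at 0.819, BGLU29 at 1.00, NAC083 at 0.544 and ABCC3 at 0.816 lay within the percentiles. AT3G16560, with 99 reads, was below the minimum and had a ratio of 0.723.

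**Figure D4:**
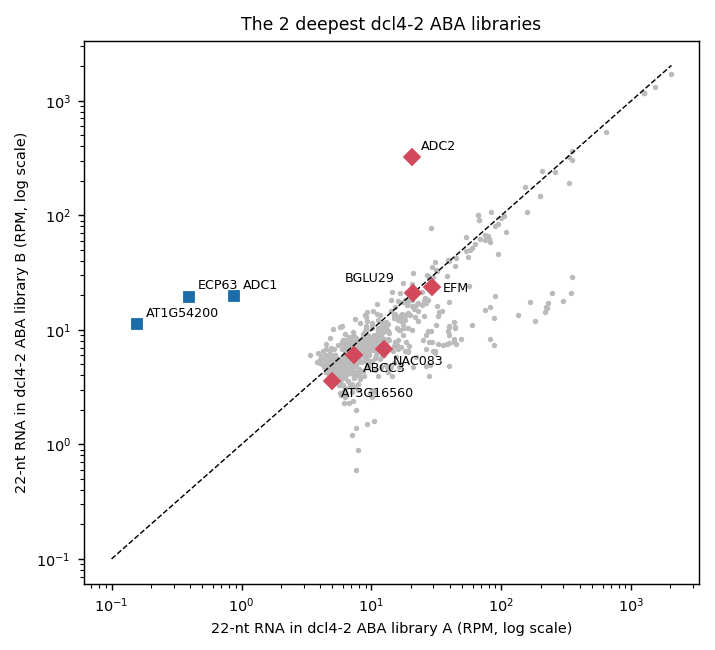
22-nt RNA level in library B against library A of dcl4-2 on ABA, in RPM on log scales, for genes with at least 100 reads in both together (grey), the 6 genes (red diamonds) and the 3 genes with the highest ratio (blue squares). The dashed line marks equal levels. ADC2 lies far above it at 324 against 20.5 RPM, with ADC1, ECP63 and AT1G54200, while the other 5 genes lie within the main cloud.

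The genes whose profile was most like the mean profile of the 6 were found by Pearson's r of log2(RPM + 1) over the 18 libraries, among 5689 genes. They were the transcribed pseudogene AT2G13590 (r = 0.9495), AT2G07827 (r = 0.927), CYP79B3 (r = 0.914), CYP79B2 (r = 0.902) and the pseudogene AT1G42420 (r = 0.885). The libraries share their group structure and many zeros, so these values only order the genes. CYP79B2 and CYP79B3 encode closely related cytochrome P450 enzymes of indole glucosinolate synthesis, and reads shared by the 2 cannot be told apart. CYP79B2 gave 4.66, 2.59 and 3.87 RPM in libraries A, B and C of dcl4-2 on ABA, and at most a mean of 0.501 RPM in any other group.

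The sequences of the 6 genes were searched for features that the choice of genes did not use. Complementarity to mature miRNAs, scored up to 4 with a lower score for better pairing, was found in 3 of 6 transcripts against 11.7% of 27444 transcripts. For miRNAs of 22 nt, the length known to trigger secondary siRNAs, it was found in 0 of 6 against 0.244%. The sites in ADC2 and NAC083 include CT-rich repeats that match miR5021. NAC083 also holds a site for miR1886.3 with a score of 3.0, and ADC2 holds one for miR415 with a score of 4.0. The site in ABCC3, for miR3434-5p with a score of 3.5, lies in coding sequence at chr3:4198525-4198544 on the minus strand, inside the stretch shared with AT1G71330. It is shown here with bases in A:U and G:C pairs in capitals, and those in G:U pairs or mismatches in lower case.
ABCC3 site: gATgggAGAATCAGCCAAGc
No read position is in the table, so whether any RNA began at these sites was not tested.

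The 250 bases before each transcript start were searched on both strands for ACGTG, the core of the ABA-response element. It occurred in 2 of 6 genes, BGLU29 with 2 matches and NAC083 with 1, against 22.9% of 27443 upstream regions of the same length. CACGTG, which contains that core, occurred in 0 of 6 against 6.49%. The 2 regions that hold the core are shown 5′ to 3′ along the gene, for BGLU29 at chr2:18353936-18354185 and for NAC083 at chr5:4196006-4196255, with ACGTG or its reverse complement CACGT in capitals.
BGLU29 upstream: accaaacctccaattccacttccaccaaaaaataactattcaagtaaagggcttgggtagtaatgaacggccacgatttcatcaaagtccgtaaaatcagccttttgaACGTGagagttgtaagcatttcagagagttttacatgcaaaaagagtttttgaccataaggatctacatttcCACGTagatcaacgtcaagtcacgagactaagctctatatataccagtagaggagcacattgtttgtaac
NAC083 upstream: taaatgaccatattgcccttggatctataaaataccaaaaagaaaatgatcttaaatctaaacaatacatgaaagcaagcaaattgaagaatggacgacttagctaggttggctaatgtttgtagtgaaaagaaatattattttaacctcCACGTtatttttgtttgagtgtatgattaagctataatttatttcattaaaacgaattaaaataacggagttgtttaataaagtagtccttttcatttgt
A match describes letters in this window and says nothing of what binds there.

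In the authors' deposited table, the log2 fold change from MS to ABA in dcl4-2 ran from 2.02 for NAC083 through 2.70 for AT3G16560, 3.67 for ABCC3, 4.89 for ADC2 and 6.04 for BGLU29 to 6.97 for EFM. For the double mutant against dcl4-2 on ABA, the authors' deposited table gives -3.61 for AT3G16560, -3.66 for ABCC3, -5.45 for NAC083, -5.99 for BGLU29, -6.35 for ADC2 and -6.92 for EFM. These 2 comparisons share the libraries of dcl4-2 on ABA, which also chose the genes. From MS to ABA in Col-0 the authors' deposited table gives 2.47 for BGLU29, 0.80 for ADC2 and negative values for the other 4. In that table EFM has -1.21 for this comparison although it had 0 reads in all 6 libraries, so such values of genes without reads carry no direction.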

How the data were processed

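The deposited table gives 1 value per gene and group, headed TPM per the file headers. These deposited values were found to be RPM (reads scaled to a common library size) without a length term, averaged by the authors over the 3 libraries of a group. The same table holds log2 fold changes computed by the authors, of which a few are printed here, and the authors' p-values, raw and adjusted, which are not used here. The submitters' processing notes list Bowtie 1.2.2, SAMtools 1.9, DESeq2 and the build TAIR10. No source used here states how reads with several matches were handled.

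Each group mean is a sum of whole multiples of 3 fixed steps, 1 per library, so the reads of each library were recovered. A single solution was found for all 32420 genes in 4 groups. In dcl4-2 on ABA it was found for 32418, with NIA1 and NIA2 not searched. In dcl4-2 dcl2-1 on MS it was found for 32385, and 35 had several. For those 35 the solution with the lowest SD between libraries was taken. In tests on simulated counts, 100% of the true reads were recovered. These counts were drawn from genes with a single solution and averaged with the same library totals. The tests could therefore not show an error in those totals or in the genes with several solutions. No library was treated as a copy of another, since the chi-square per gene between libraries of 1 group was 1.60 to 12.5, above sampling noise.

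Groups were compared by limma 3.58.1 (R 4.3.3, trended prior) fitted to log2(RPM + 1) of all 18 libraries. The 5697 genes that reached 1 RPM in 3 or more libraries were tested. Two-sided p-values were adjusted after Benjamini and Hochberg over these genes, with 0.05 as threshold. Such differences understate the change of genes with few reads. The design assumed TPM, and its test was kept for RPM. Other scalings, another pseudocount, no filter, fits on the compared groups alone and left-out libraries were tried as alternatives. Sequences, gene models and miRNAs were taken from RefSeq TAIR10.1, with gene levels compared per kb of transcript.

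The 6 genes, the gene lists and the tests were chosen with earlier results of these data known. By the rule for named genes, each list gives the genes that passed a comparison or else the 2 with the highest mean over groups. The highest neighbours, the 5 most alike and the 5 highest genes within the bounds were also named. AT1G71330, BGLU30, AT1G54200, ECP63, AT5G13200, AT4G34690, HAI1, ABCC4, ABCC8, ABCC10, AT4G07932, BRI1, AGO1 and AT2G07727 were added after their values were seen.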

Additional observations from a re-analysis of the deposited data

How the results depend on the processing

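No paired analysis was possible because the recovered libraries carry no replicate number. EFM and BGLU29 had no MS read and could not pass there. Of ADC2, NAC083, ABCC3 and AT3G16560, 0 passed on MS under any alternative that gave an adjusted p. Counts of genes passing moved by over 1.5 times in 6 of the 6 comparisons without the filter, in 5 with a pseudocount of 0.1, in 5 with only the groups compared, in 4 with MIRNA scaling and in 3 with gene-sum scaling (equal sums over genes without NIA1 and NIA2). For dcl4-2 against Col-0 on MS, 26 genes passed, and 6 with a pseudocount of 0.1, 5 without the filter, 0 with only the groups compared and 8 to 34 with 1 library left out. For dcl4-2 dcl2-1 against dcl4-2 on MS, 37 passed, and 7 without the filter, 6 with only the groups compared, 65 with MIRNA scaling and 22 to 38 with 1 library left out. For dcl4-2 dcl2-1 against Col-0 on MS, 71 passed, and 42 with a pseudocount of 0.1, 19 without the filter, 0 with only the groups compared and 37 to 93 with 1 library left out. For dcl4-2 against Col-0 on ABA, 13 passed, and 3, 7, 6 and 6 with that pseudocount, without the filter, with MIRNA scaling and with gene-sum scaling, and 6 to 11 with 1 library left out. For dcl4-2 dcl2-1 against dcl4-2 on ABA, 358 passed, and 80 with that pseudocount, 73 without the filter, 9 with only the groups compared, 12 with MIRNA scaling, 26 with gene-sum scaling and 73 to 305 with 1 library left out. For ABA against MS in dcl4-2, 318 passed, and 37, 43, 7, 21 and 20 under the same 5 settings, and 16 to 269 with 1 library left out. The causes were not tested. The planned count models were run on the recovered reads, but their values are not reported, since the file holds group means and no counts. They called more genes than limma in dcl4-2 against Col-0 on ABA, with ADC1 and HHO5 higher in dcl4-2 by 1 of them, and fewer in the other ABA comparisons. The model that added those calls lost that of HHO5 from MS to ABA, and the other lost that of ADC1 in the double mutant against dcl4-2 on ABA. On MS those 4 genes did not pass by them either, where they gave an adjusted p. MIRNA scaling moved the median of all genes by -0.11, 0.31 and -0.43 in log2(RPM + 1) in the 3 ABA comparisons, in that order.

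Among the 6 genes on MS, the sign turned for ABCC3 between the double mutant and dcl4-2 (-0.38 to 0.31 with 1 library left out, and also in a count model). It also turned for ADC2 between the same groups (-0.98 to 0.32) and between the double mutant and Col-0 (-0.13 to 1.16), and for AT3G16560 between dcl4-2 and Col-0 (-0.34 to 0.44). The remaining alternatives were chosen after seeing the data. The mean in dcl4-2 on ABA ran from 25.7 to 177 RPM for ADC2 with 1 library left out. It was 20.2 RPM for EFM, 11.7 for BGLU29, 90.7 for ADC2, 7.36 for NAC083, 4.30 for ABCC3 and 2.31 for AT3G16560 with MIRNA scaling. ADC1 and HHO5 kept their direction throughout. For HHO5 neither this direction nor its calls are support, since it reached the filter only with its dcl4-2 ABA libraries. Genes at 1 to 6 reads a group are at the limit of what the depth can show.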
